A study of Homo sapiens with 18 samples.

Results

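The empty-vector libraries of 2 established human neuroblastoma lines, Kelly and BE2C, were compared for where their chromatin was open. The assay was ATAC-seq, which tags accessible DNA with adapters carried by a transposase, and 1 list of peaks on hg19 stood for each library. A region was taken as Kelly-specific if all 3 Kelly pLKO lists held it and none of the 3 BE2C pLKO lists did, and as BE2C-specific in the opposite case. For presence, only the 19984 peaks of a list with the highest −log10 p counted, the length of the shortest list. Absence was asked of the full lists. The shortened lists merged into 32159 regions, of which 575 were Kelly-specific and 1501 were BE2C-specific, 2076 line-specific regions in all.

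The series holds 18 libraries, 3 for each of 6 groups. Kelly cells and BE2C cells had been transduced with pLKO, a lentiviral vector without a hairpin, or with a hairpin against AHR, either shAhR-1 or shAhR-2. AHR encodes the aryl hydrocarbon receptor, a ligand-activated transcription factor. The comparison here used Kelly pLKO and BE2C pLKO (n = 3 libraries each), and the 12 hairpin libraries served as libraries that the choice of regions had not used. Both lines are described in the series title as MYCN amplified, and the pLKO cells of both lines carry the vector backbone. Each line comes from 1 tumour, and BE2C is known as a clone, so differences between lines, tumours and clones cannot be told apart. Whether the triplicates were separate cultures is not stated in the labels, so the spread that the p-values measure may be technical.

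Neuroblastoma arises in the sympathetic branch of the neural crest lineage. Open chromatin in such cells marks promoters and distal enhancers, and lines from different tumours differ in which enhancers are open. Neuroblastoma genomes also carry amplified MYCN, a transcription factor gene on the short arm of chromosome 2, and recurrent losses and gains of whole arms, among them loss of 1p, 3p or 11q and gain of 17q. A peak list responds to both, because a segment with more copies yields more reads. Copy number was not measured here, so a more open segment and a segment with more copies cannot be told apart from the number of peaks. Genes near the regions, the lineage factors among them, were not analysed here because no gene annotation of hg19 was used, and regions are given by coordinate and chromosome arm. For the same reason the labelled cell type was not checked against its markers.

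The Kelly pLKO lists held 34848, 19984 and 30053 peaks on chromosomes 1 to 22 and X, and the BE2C pLKO lists held 34343, 36525 and 44397. Replicate 2 of Kelly was the shortest list, and replicate 1 of Kelly was longer than replicate 1 of BE2C, so the groups overlapped. List length averaged 28295 ± 7586 peaks over the Kelly libraries and 38422 ± 5289 over the BE2C libraries (SD, n = 3), a log2 ratio of −0.47 that did not pass a two-sided exact permutation test (p = 0.2, where 0.1 is the smallest p that 3 against 3 allows). Covered sequence was 21.9, 10.3 and 18.03 Mb in Kelly and 18.9, 20.9 and 28.9 Mb in BE2C (log2 ratio −0.49, exact permutation p = 0.4). The depth of the libraries is unknown from the lists. As a measure that moves with it, the lowest local background solved for any peak of a library was 1.77, 1.92 and 1.26 overlapping reads in Kelly and 1.51, 1.495 and 1.86 in BE2C.

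Libraries of the same line shared more sequence than libraries of different lines. At equal list length the Jaccard index, the shared over the combined covered bases, ranged between 0.510 and 0.691 for the 3 pairs within Kelly. Within BE2C it ranged between 0.647 and 0.672, and for the 9 pairs of a Kelly with a BE2C library between 0.390 and 0.530. The pairs within Kelly overlapped in range with the pairs between lines. The mean within lines exceeded the mean between lines by 0.136, with p = 0.1 in an exact permutation test over 10 groupings, the smallest p it allows. A common core was large: 11516 of the 32159 regions, 35.8%, were present in all 6 shortened lists.

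Line-specific regions were a small part of the map. Kelly-specific regions made up 1.79% of all regions and BE2C-specific regions 4.67%. The lowest fold over local background among the 3 libraries of the line, the authors' own value per peak, had a median of 4.99 in Kelly-specific regions and 6.96 in BE2C-specific regions. Across the regions present in all 6 lists this lowest fold had a median of 6.23 over 6 libraries. These medians do not rank Kelly-specific against BE2C-specific regions by strength, because their cut-offs were unlike. Kelly replicate 2 was used down to a −log10 p of 3.79, and every BE2C list ended at 10.04 or higher. At Kelly-specific regions the median pileup was 18 in that library, against 37 and 27 in Kelly replicates 1 and 3. The merged regions had a median width of 708 bp when Kelly-specific and 783 bp when BE2C-specific, against 1057 bp for those present in all 6 lists.

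The counts rest on how absence was defined and on 1 library. Of the 14750 regions in all 3 shortened Kelly lists, 575 had no peak in any full BE2C list, 317 had a peak in 1, 517 in 2 and 13341 in all 3. Of the 16139 regions in all 3 shortened BE2C lists, 1501 had no peak in any full Kelly list, 726 had a peak in 1, 1999 in 2 and 11913 in all 3. Replicate 2 of Kelly was used whole, down to a −log10 p of 3.79, whereas the other 5 lists ended between 10.04 and 17.96. Without it, the lists were shortened to 30053 peaks, presence and absence in Kelly were asked of 2 lists, and the counts were 2838 Kelly-specific and 3927 BE2C-specific regions. The larger number for BE2C was seen with and without that library. The full lists asked for absence were unequal, with 34343 to 44397 peaks in BE2C and 19984 to 34848 in Kelly. Absence was therefore the stricter demand for a Kelly-specific region. With absence asked only of the shortened lists, the counts were 1694 Kelly-specific and 2447 BE2C-specific regions. The part of list length in the larger number for BE2C was not tested.

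The line-specific regions were looked up in the hairpin libraries. Of the 575 Kelly-specific regions, 558 had a peak in at least 1 of the 6 Kelly hairpin lists and 346 in at least 1 of the 6 BE2C hairpin lists. Of the 1501 BE2C-specific regions, 844 had a peak in at least 1 Kelly hairpin list and 1494 in at least 1 BE2C hairpin list. In the own line these are 97.0% of Kelly-specific and 99.5% of BE2C-specific regions, near the 89.2% of all 32159 regions with a peak in a Kelly and the 93.5% with one in a BE2C hairpin list. In the other line they are 60.2% and 56.2%. More Kelly than BE2C hairpin lists held the region for 482 Kelly-specific regions (83.8%), and fewer for 30 (5.22%). The same held for 3 BE2C-specific regions (0.200%), against 1464 (97.5%) with fewer. Among all 32159 regions, which count as the background here, 11.5% were in more Kelly and 56.4% in more BE2C hairpin lists.

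**Figure D1:**
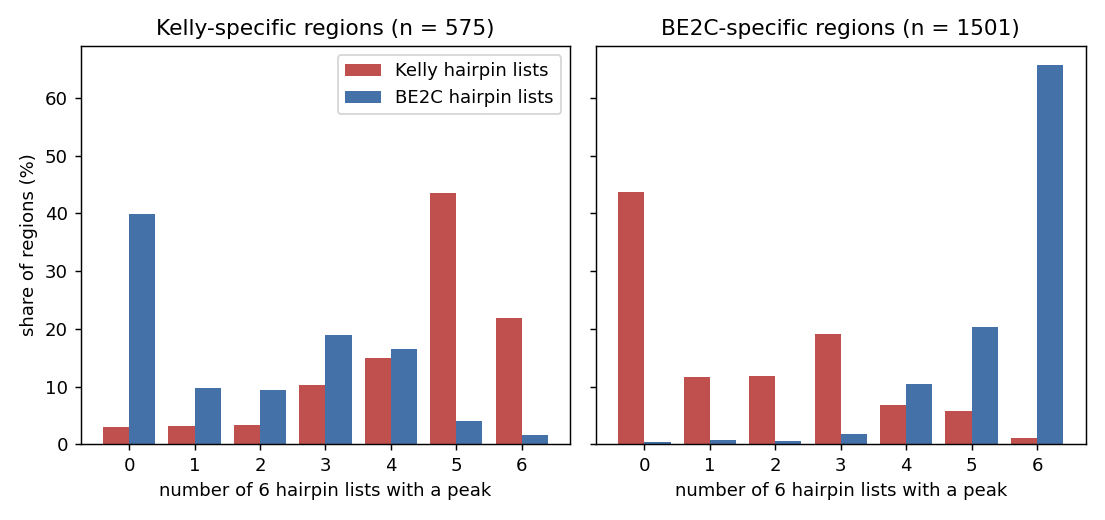
Bars give the share of Kelly-specific (left) and BE2C-specific (right) regions, in percent, by the number of the 6 Kelly (red) or 6 BE2C (blue) hairpin lists that held a peak in the region. Kelly-specific regions were in all 6 Kelly hairpin lists in 21.9% of cases, against 22.6% of all regions, and BE2C-specific regions in all 6 BE2C hairpin lists in 65.8%, against 56.4% of all regions. The share in all 6 Kelly lists was limited by shAhR-1 replicate 1, whose 9204 peaks held 24.7% of Kelly-specific regions. In 5 or 6 Kelly hairpin lists were 65.4% of Kelly-specific regions, against 51.6% of all regions.

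Absence in the pLKO lists of a line was not absence in its hairpin lists. The 3 Kelly shAhR-2 lists, which held 64808, 60457 and 65740 peaks, had a peak in 42.8%, 36.7% and 44.8% of the BE2C-specific regions. In the Kelly shAhR-1 lists, with 9204, 24424 and 23806 peaks, the shares were 2.13%, 13.6% and 14.7%. For Kelly-specific regions the BE2C shAhR-2 lists, with 75798, 77607 and 81637 peaks, had 46.1%, 49.9% and 49.2%. The BE2C shAhR-1 lists, with 45023, 27140 and 25660 peaks, had 25.0%, 5.04% and 5.57%. In each line the 3 shAhR-2 lists were longer than the 3 shAhR-1 lists and held more of the other line's regions. Within a hairpin the order of length and share did not always match. The part of list length in this was not tested. An effect of the hairpin on these regions cannot be told apart from peaks missed in the pLKO lists. There were 217 Kelly-specific regions (37.7%) in a Kelly hairpin list and in no BE2C hairpin list, against 3.77% of all regions. There were 650 BE2C-specific regions (43.3%) in a BE2C hairpin list and in no Kelly hairpin list, against 8.12% of all regions.

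The strongest Kelly-specific regions, ranked by their lowest fold in Kelly pLKO, were on 6 chromosomes. The first lay at chr9:92912008-92912398 on 9q, with folds of 12.3, 21.8 and 17.1 in Kelly pLKO. It was in all 6 Kelly and in 0 BE2C hairpin lists. A region at chr5:12574105-12575096 on 5p had folds of 12.2, 13.2 and 12.8, and one at chr14:29298959-29299703 on 14q had 16.7, 12.3 and 12.1. The first 10 were all present in 6 of 6 Kelly hairpin lists. Of these, 5 had no peak in any BE2C hairpin list, and the highest number of BE2C hairpin lists was 3, at chr3:9265279-9266406 and at chr5:49736558-49737475.

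A pair of Kelly-specific regions on 3p lay close together. The region at chr3:21836358-21836992 had folds of 14.5, 8.91 and 12.4, and its neighbour at chr3:21792327-21793177, which ranked just after the first 10 and was chosen after its values were seen, had 12.1, 8.36 and 12.9. Both were in all 6 Kelly and in 0 BE2C hairpin lists. Another of the first 10, at chr4:49496651-49497404, had folds of 18.2, 9.82 and 18.1. It lay beside bins of high local background: in the bin of 100 kb that starts at 49500001 the local background was 20.9, 26.3 and 22.7 times the genome-wide level in Kelly and 13.6, 14.2 and 11.7 times in BE2C. Also among the first 10, the regions at chr4:52917456-52918498 and chr5:49736558-49737475 lay near peak-free stretches at which arms were split. Those stretches ended at 52660678 on chromosome 4 and 49405683 on chromosome 5.

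Among BE2C-specific regions, the first by lowest fold lay at chr17:22023394-22023812 on 17p, with folds of 22.002, 21.3 and 17.99 in BE2C pLKO. It was in 0 Kelly and in only 2 of 6 BE2C hairpin lists. It also lay near the peak-free stretch at which chromosome 17 was split, which starts at 22261869. In the bin of 100 kb that starts at 22200001 the local background was high. It was 28.5, 47.2 and 29.9 times the genome-wide level in Kelly and 37.6, 43.0 and 23.9 times in BE2C. The other 9 of the first 10 were in all 6 BE2C hairpin lists. The region at chr2:190538725-190539703 on 2q had folds of 16.1, 16.8 and 15.5, and the one at chrX:2171031-2171610 on Xp had 15.1, 15.7 and 16.5. Neither was in a Kelly hairpin list. By contrast, the region at chr7:109735434-109736111 on 7q, with folds of 13.6, 13.3 and 13.4, was in 5 of 6 Kelly hairpin lists.

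Some line-specific regions lay in clusters, here at least 3 regions of 1 kind with gaps of at most 100 kb. The longest run of Kelly-specific regions, 15 of the 42 regions in the span, lay at chr2:16676260-16840759. The next, 10 of 43, lay at chr2:15834295-16030649. No other Kelly-specific cluster had more than 3. The largest BE2C-specific cluster, 5 of 9, lay at chr2:87785187-87987799. On 11q there were 5 BE2C-specific clusters of 4 regions, among them chr11:117595377-117680461, chr11:125949638-125986020, chr11:126286286-126389016 and chr11:128249506-128377646. No cluster of either kind held a region of the other kind.

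The Kelly clusters on 2p lay at the edges of a segment of high background that was longer in Kelly. The local background in bins of 100 kb was at least 20 times the genome-wide level in all 3 Kelly libraries between 15.8 and 16.9 Mb of chromosome 2. In the 3 BE2C libraries the same held between 16 and 16.6 Mb. Within these segments the ratio lay between 70.4 and 176 in Kelly and between 75.1 and 193 in BE2C. In the 5 bins high in Kelly alone, it lay between 70.4 and 176 in Kelly and between 1.56 and 31.2 in BE2C.

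**Figure D2:**
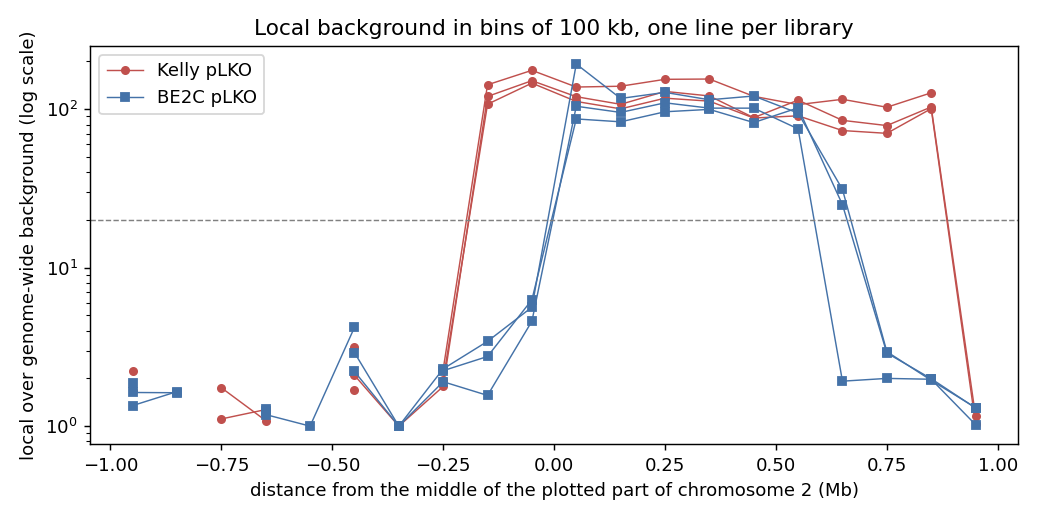
Points give the median local background over the genome-wide background (log axis) in bins of 100 kb against the distance in Mb from the middle of the plotted part of chromosome 2, with 1 line for each Kelly (red) and BE2C (blue) pLKO library. The dashed line marks 20 times, which the Kelly libraries pass over 11 bins and all 3 BE2C libraries over 6.

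The Kelly-specific regions followed that segment. It held 26 of them, of which 24 lay in the 5 bins high in Kelly alone, and 1 BE2C-specific region. MYCN lies on this arm, but whether these segments hold it was not read from an annotation. High background also occurred outside the segment, in places at higher levels and in both lines. In the bin of 100 kb that starts at 500001 on chromosome 1, the ratio was 2570, 1549 and 2843 in Kelly. It was 1336, 1616 and 1693 in BE2C. Of 10915 bins with a value in all 3 Kelly libraries, 41 passed 20 times in all 3. In BE2C 31 of 14223 did, and 29 bins passed in both lines. These counts include the 11 Kelly and 6 BE2C bins of the segment itself. No run of neighbouring high bins elsewhere was as long in either line. With chromosome 2 between 15 and 17 Mb left out and the lists shortened anew, 539 Kelly-specific and 1466 BE2C-specific regions were found, so most of them lay elsewhere. Because the lists were cut again, the drop in each count is not the number of regions in that stretch.

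The share of peaks by chromosome arm differed between the lines for most arms. Of 41 arms tested with limma, 12 were higher in Kelly (29.3%) and 17 lower (41.5%) at an adjusted p under 0.05. On the 29 arms that passed, and on no other, the Kelly and BE2C libraries did not overlap. The median log2 ratio over all arms was −0.0022. Shares are percentages of the 19984 peaks of a list, so that a higher share on one arm lowers others. The largest shift was on 22q, which held 2.04%, 2.08% and 1.99% of peaks in Kelly and 1.34%, 1.40% and 1.33% in BE2C. All Kelly libraries lay above all BE2C libraries (log2 ratio 0.59 ± 0.035 SE, limma adjusted p = 8.97e-07).

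Next came 17q, the arm whose gain recurs in neuroblastoma, with 3.73%, 3.67% and 3.63% in Kelly and 2.63%, 2.61% and 2.54% in BE2C (log2 ratio 0.50 ± 0.032 SE, limma adjusted p = 8.97e-07). On 3p the shares were 2.95%, 3.03% and 2.98% in Kelly, against 2.37%, 2.35% and 2.30% in BE2C, a log2 ratio of 0.35. On 1p they were 4.96%, 5.32% and 5.09% in Kelly, against 4.08%, 4.31% and 3.98% in BE2C, a log2 ratio of 0.31. The groups did not overlap on any of these 3 arms, as on all arms that passed. The small arm 18p (0.4003%, 0.435% and 0.390% against 0.315%, 0.320% and 0.345%) and 9p (1.35%, 1.18% and 1.38% against 1.07%, 1.12% and 1.03%, Kelly against BE2C) were also higher in Kelly, by 0.32 and 0.28 on the log2 scale.

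Arms lower in Kelly were led by 18q, with 0.781%, 0.620% and 0.771% in Kelly and 0.961%, 0.941% and 0.971% in BE2C (log2 ratio −0.41 ± 0.076 SE, limma adjusted p = 0.00106). On 8p the shares were 1.42%, 1.33% and 1.45% in Kelly, against 1.82%, 1.83% and 1.796% in BE2C, a log2 ratio of −0.38. On 2q they were 3.67%, 3.83% and 3.79% against 4.80%, 4.67% and 4.85%, and on 20p 0.806%, 0.801% and 0.801% against 1.01%, 0.996% and 1.06%, with a log2 ratio of −0.34 on both. On Xp and 9q the log2 ratios were −0.34 and −0.30. Every Kelly library lay below every BE2C library on these 6 arms, as on all arms that passed as lower in Kelly. On 11q the log2 ratio was −0.23 (limma adjusted p = 0.0014).

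**Figure D3:**
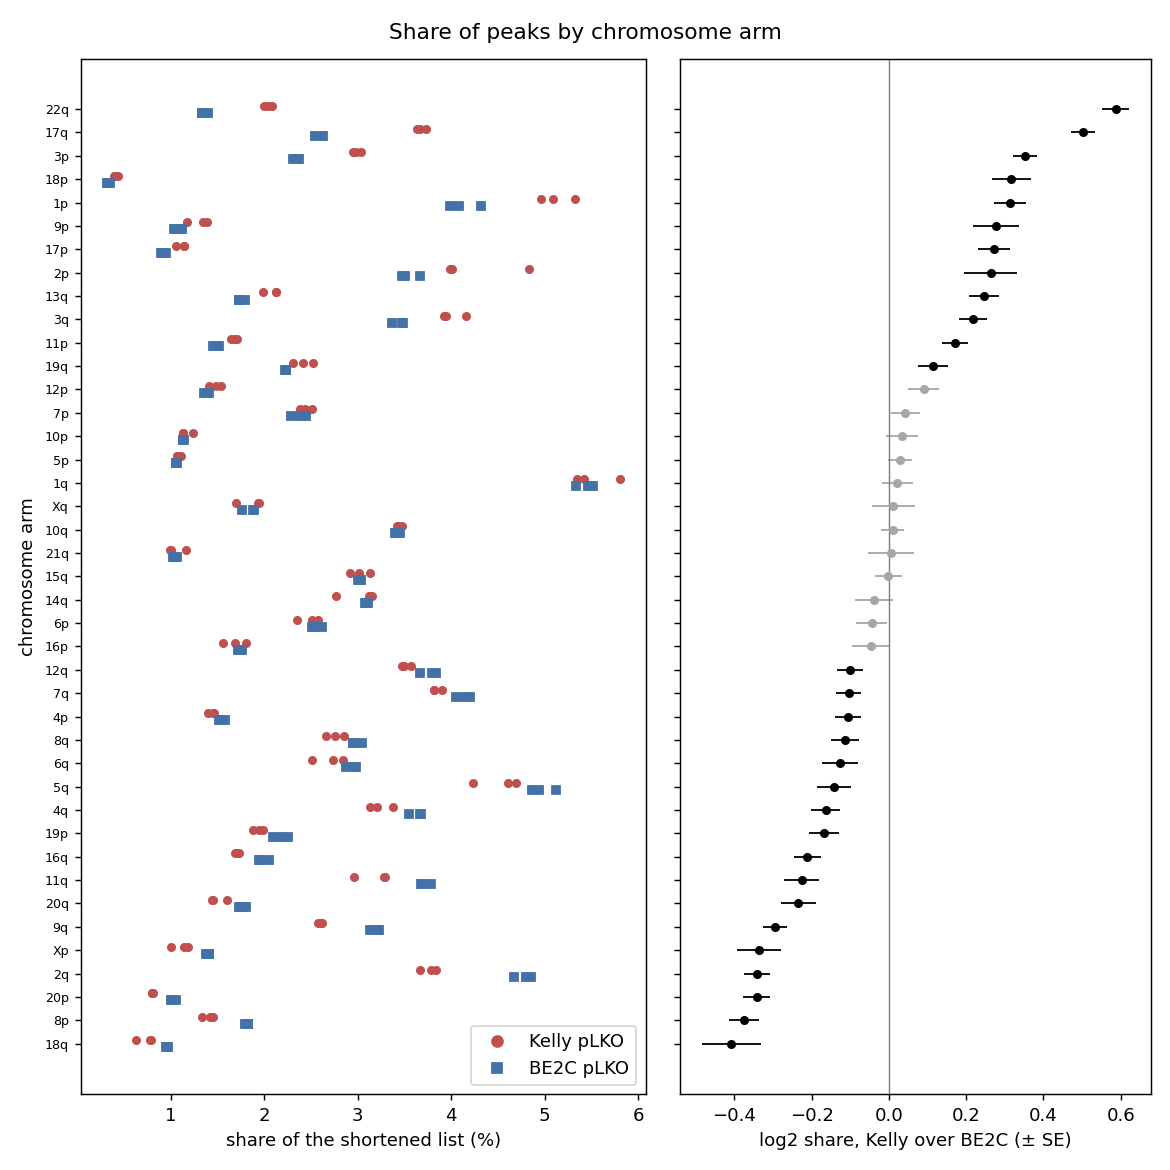
The left panel gives the share of the shortened list (percent) on each chromosome arm in the 3 Kelly pLKO (red circles) and 3 BE2C pLKO (blue squares) libraries, and the right panel the log2 ratio of Kelly over BE2C with its SE, in black where the adjusted p was under 0.05. Arms run from 22q (0.59) at the top to 18q (−0.41) at the bottom.

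The share of regions that were line-specific is given by arm as a description, with no test. On 2q, 1.83% of regions were Kelly-specific and 9.21% BE2C-specific, and on 8p 1.81% and 9.26%. On 17q the shares were 1.84% and 0.819%, on 22q 1.802% and 1.44%, on 9p 4.85% and 1.89%, and on 18p 5.43% and 4.65%. Over all regions they were 1.79% and 4.67%, so on 2q, 8p, 17q and 22q the Kelly-specific share lay near that of all regions and the BE2C-specific share did not. Other leading arms differed from all regions in both shares, with 3.07% and 2.52% on 3p, 0.767% and 6.68% on 9q, and 0.345% and 8.28% on 20p. On 2p, which holds the segment described above, the shares were 4.06% and 3.84%.

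Local background and share differed in the same direction on most arms, whether or not they passed the test. Background is given as a log2 difference relative to the median arm. Of the 29 arms that passed, 23 had a background difference of the same sign as the difference in share, and 5 (11p, 19q, 4q, 6q and 8q) the opposite. Of the 12 arms that did not pass, only Xq had opposite signs (share 0.011, background −0.18), so the match was not particular to arms that passed. The remaining arm that passed, 7q, was the median arm itself. Relative to that arm, whose own log2 difference was 0.022, the background differed by 0.22 on 22q, 0.11 on 17q, 0.26 on 3p and 0.12 on 1p, and by −0.19 on 8p, −0.19 on 2q, −0.22 on 9q and −0.18 on 11q (log2, Kelly over BE2C). On 18q it differed by −0.039, on Xp by −0.0020 and on 9p by 0.0057, little beside the differences in share there. The genome-wide level is the lowest background solved in a library, so no arm can lie below it. On 18q the background was 1.132, 1.00001 and 1.213 times that level in Kelly and 1.078, 1.101 and 1.198 times in BE2C. A lower background in Kelly could therefore hardly show on 18q. The part of local background in the differences of share was not tested. On 2p the share was 4.01%, 4.83% and 3.99% in Kelly and 3.66%, 3.51% and 3.47% in BE2C, a log2 ratio of 0.26. Without chromosome 2 between 15 and 17 Mb it was 0.13 (limma adjusted p = 0.00458).

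The same arms were then compared in the 6 Kelly and 6 BE2C hairpin libraries, shortened to 9204 peaks. There, 12 arms were higher in Kelly (29.3%) and 15 lower (36.6%). Of the 29 arms that passed in the pLKO libraries, 28 had the same sign in the hairpin libraries, and 23 of those also passed there. The log2 ratio in the hairpin libraries was 1.85 ± 0.33 SE on 22q, 0.83 ± 0.092 on 17q, 0.67 ± 0.040 on 3p and 0.71 ± 0.066 on 1p. It was −0.65 on 18q, −0.40 on 8p, −0.44 on 2q and −0.84 on 9q. The pLKO lists were cut at 19984 peaks and these at 9204, so the sizes of the ratios were not compared. The arm with the opposite sign was 19p, at −0.17 in the pLKO and 0.15 in the hairpin libraries (limma adjusted p = 0.604 in the hairpin libraries).

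Windows of 10 Mb placed the differences within arms. Of 305 windows with a mean of at least 10 peaks, 69 were higher in Kelly (22.6%) and 80 lower (26.2%) at an adjusted p under 0.05 in limma. In the hairpin libraries 78 were higher (25.6%) and 89 lower (29.2%). Of the 149 windows that passed in the pLKO libraries, 133 had the same sign in the hairpin libraries and 108 of those passed there, while 16 had the opposite sign. Without replicate 2 of Kelly the pLKO libraries gave 107 higher and 102 lower windows.

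The longest run of neighbouring windows higher in Kelly covered chromosome 3 from its start to 70 Mb, 7 windows with log2 ratios between 0.30 and 0.62. Together they held 2.55%, 2.58% and 2.56% of peaks in Kelly and 1.90%, 1.92% and 1.88% in BE2C. On chromosome 17 the run covered 40 to 90 Mb, with 3.03%, 2.90% and 2.99% in Kelly and 1.99%, 1.95% and 1.90% in BE2C. On chromosome 1 it covered the first 50 Mb, with 2.58%, 2.77% and 2.59% against 1.85%, 2.03% and 1.83%. The 5 windows on chromosome 1 had log2 ratios between 0.29 and 0.62 in the pLKO libraries. In the hairpin libraries, cut at 9204 peaks, they lay between 0.90 and 2.93, and the highest had an SE of 0.52. Among further runs were those on chromosome 22 from 10 to 60 Mb and on chromosome 11 from 30 to 70 Mb. The ends of runs, here and below, are window limits, and the last window can reach past the end of a chromosome.

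Runs lower in Kelly lay on other segments. On chromosome 2 from 190 to 250 Mb, 6 windows held 1.88%, 1.84% and 1.91% in Kelly and 2.68%, 2.63% and 2.71% in BE2C. On chromosome 9 from 70 to 120 Mb, 5 windows held 1.00%, 0.896% and 1.03% in Kelly and 1.73%, 1.69% and 1.66% in BE2C, a mean log2 ratio of −0.79. On chromosome 11 from 90 to 140 Mb the shares were 1.23%, 1.04% and 1.23% in Kelly, against 1.87%, 1.88% and 1.91% in BE2C. The lowest window of that run had a log2 ratio of −1.21. Most of the BE2C-specific clusters on 11q lay in the same stretch. Among further runs lower in Kelly were those on chromosome X from 10 to 50 Mb and chromosome 18 from 40 to 80 Mb.

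**Figure D4:**
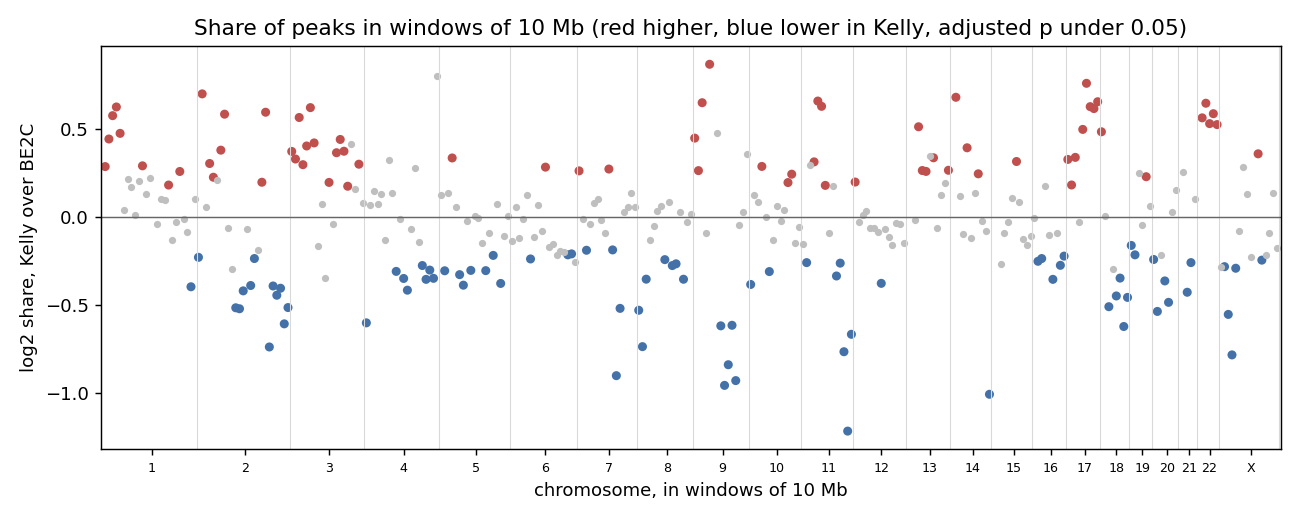
Each point is a window of 10 Mb, placed along chromosomes 1 to 22 and X, with the log2 ratio of its share of peaks, Kelly over BE2C pLKO, on the vertical axis. Red and blue points are higher and lower in Kelly at an adjusted p under 0.05 (69 and 80 windows), and grey points are the other windows tested.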

How the data were processed

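ATAC-seq peak lists of 18 libraries were used, 1 per library, with no pooling recorded. The build was hg19, and MACS2 2.1.0, BWA 0.7.17, Trimmomatic 0.33, deepTools 3.1.3 and CASAVA 1.8.2 were used, per the submitters' processing notes. The sources used here give no settings and no statement on a shift of read ends. The fold over local background was deposited by the authors as a linear ratio, and the peak caller's −log10 p-value and −log10 q-value were deposited beside it. A list gives no value where no peak was called.

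Only chromosomes 1 to 22 and X were analysed; other peaks were 0.197% to 0.830% of a list. The 6 pLKO lists were shortened to 19984 peaks by −log10 p and merged at an overlap of at least 1 bp. List lengths and Jaccard indices were compared with exact permutation tests. Shares by arm and by 10 Mb window were fitted as log2((peaks + 1)/list length) with limma 3.58.1 in R 4.3.3, with Benjamini-Hochberg adjustment over all arms or windows. The hairpin libraries were fitted with line and hairpin as terms, at 9204 peaks. Arms were split at the longest stretch without a peak in any list; chromosomes 13, 14, 15, 21 and 22 were taken whole. Local background was solved from fold and p as a Poisson tail with a pseudocount of 1 on pileup and background, where the fold was 1.5 or more; the lowest share of peaks solved in a pLKO list was 99.27%, and the lowest share of solved pileups that were whole within 0.05 was 99.9887%.

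The regions named are the first 10 per line by lowest fold, arms past the threshold (at most 6 per direction by size) and runs of windows (at most 5 per direction); clusters and the other regions and arms were picked with their values known. The comparison and the lists were chosen with earlier results of these data known. The planned counts near listed genes and the planned motif search need an annotation and a genome of hg19 and were not run. The functions were tested on simulated data.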

Additional observations from a re-analysis of the deposited data

How the results depend on the processing

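The counts of line-specific regions moved most. Kelly-specific and BE2C-specific regions numbered 1694 and 2447 with absence asked only of the shortened lists, 896 and 5420 with full lists on both sides, 119 and 206 with the strongest 10000 peaks on the present side, and 1236 and 2444 with presence in at least 2 of 3 libraries, an alternative chosen after seeing the data, as was leaving out chromosome 2 between 15 and 17 Mb. With full lists and a −log10 q of at least 5 there were 3944 BE2C-specific regions. Leaving out 1 library gave between 610 and 2838 Kelly-specific and between 1699 and 3927 BE2C-specific regions, the highest of each without Kelly replicate 2. BE2C-specific regions outnumbered Kelly-specific ones under each of these settings; the cause was not tested.

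Windows of 5 Mb gave 124 higher and 133 lower in Kelly, and leaving out 1 library gave between 51 and 107 higher and between 59 and 102 lower windows, 107 without Kelly replicate 2. Leaving out 1 library gave between 10 and 16 higher and between 12 and 17 lower arms, a log2 ratio of peak number between −0.64 and −0.24, of covered length between −0.72 and −0.18, and a Jaccard difference between 0.111 and 0.165. The 12 leading arms kept their direction and passed the threshold in all 132 values over 11 alternatives. Their order by size moved. With full lists the log2 ratio was 0.49 on 18p and 0.45 on 22q. Without Kelly replicate 2 it was 0.46 on 18p, 0.43 on 9p and 0.41 on 22q. With the replicate block 13 arms were higher and 17 lower, and 74 windows were higher and 82 lower; same-numbered libraries correlated at −0.264, 0.159 and 0.287 in their deviations, so the numbers were not taken as pairs. The block gave p = 0.5 for the number and length of peaks (exact sign-flip permutation). Gene distances of 10 and 100 kb and motifs within 50 bp were not run. The shortest list limits what presence can show.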
